A study of Glycine max and Zea mays with 6 samples.

Results

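Seed maturation genes are named for transcripts that build up in seeds as they ripen and dry. The soybean gene table used here (RefSeq, Glycine_max_v4.0) holds 27 protein-coding genes with such symbols, and 10 of them are described here: LEA5, LEA-2, PM3, PM13, PM22, PM23, PM27, PM34, PM35 and PM37. They were chosen by a measured value, namely an H3K56ac peak of soybean leaf in the gene or within 1 kb of it, and they are 10 of 46816 protein-coding genes on the 20 chromosomes. The H3K56ac values below are therefore a description of the choice. H3K4me3 and H3K36me3 came from separate libraries and did not enter the rule as stated. The other 17 genes of the series of symbols were used for comparison. Of these, 3 genes, LEA-1, PM1 and PM9, met the same rule without being on the list. These 3 all had H3K4me3, so leaving them out lowered the share of genes with H3K4me3 among those listed.

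The samples were leaves of untreated Glycine max (accession William82), about 10 days old, grown at 25 °C under 16 h light and 8 h dark. Chromatin was precipitated with an antibody against histone H3 acetylated on lysine 56 (H3K56ac), trimethylated on lysine 4 (H3K4me3) or trimethylated on lysine 36 (H3K36me3), followed by sequencing. The design text of the series writes H3K4me1 for soybean where the title, antibody label and file of the sample give H3K4me3; the sample's own labels were followed, and each H3K4me3 value below rests on them. Each mark had 1 library, so no value has a replicate and no test between marks or genes was possible. The deposited lists give the position of each called peak or region and no height, so read depth is unknown, and the absence of a peak means that nothing was called. A whole leaf holds many cell types, and a mark in part of the cells cannot be told apart from a weak mark in all of them. Percentages over many genes are followed by exact 95% intervals, which cover counting error only, since neighbouring genes and duplicated genes are not independent.

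Late embryogenesis abundant (LEA) proteins are small, mostly hydrophilic proteins that accumulate late in seed development and are known for protecting cells against loss of water. PM is the symbol series of soybean seed maturation cDNAs, which includes LEA proteins as well as enzymes, a heat shock protein and a calcium-binding protein. In vegetative tissue these genes are mostly silent unless stress or abscisic acid acts on them. H3K56ac lies in the core of the nucleosome near where DNA enters and leaves it and is known in plants from the promoters of active genes. H3K4me3 is known from the starts of transcribed genes and H3K36me3 from their bodies.

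The leaf label was checked on marker genes. Of 5 photosynthesis and chlorophyll genes (RBCS1, RCABETA, CAB3, FTRC and HEMG), 5 had H3K56ac and H3K4me3 and 4 had H3K36me3 as well, CAB3 being the exception. Of 9 seed marker genes (GY symbols, SBP65 and the seed lipoxygenases LOX2 and LOX3), 0 had H3K56ac, 0 had H3K36me3 and 8 had H3K4me3. The shares of these marks over all protein-coding genes were 70.9%, 53.3% and 74.5%. H3K4me3 was thus no rarer at the seed markers than over all genes, and so few genes make a weak check of the label. The 3 soybean lists held 60550 H3K56ac peaks, 51233 H3K4me3 peaks and 32245 H3K36me3 regions. The sources used here do not name the soybean build, so the fit of the H3K4me3 list to the gene table was checked in the 5 Mb around each of the 10 genes. An edge of the H3K4me3 peak lay within 100 bp of a gene end for 26.7% to 36% of peaks there. After shifting the peaks by 200 bp either way the higher share was 12% to 23.6%, and it was lower than the unshifted share at 10 of 10 genes. The edge measure was not part of the plan. The planned measure, which is coarser, was the share of peaks centred no more than 500 bp from a gene end. It was higher unshifted at 4 of 10 genes against shifts of 200 bp and at 2 of 10 against 500 bp. Against 1 kb it was higher at 9 of 10 and against 2 kb at 10 of 10. In the 1 Mb around each gene the counts for the same shifts were 4, 3, 6 and 9 of 10. The H3K56ac and H3K36me3 lists were not checked in this way.

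The 10 genes fell into 3 combinations of marks. At 5 of them, LEA5, PM3, PM13, PM34 and PM35, H3K56ac was found without either other mark in the gene and 1 kb either side. LEA-2, PM22 and PM27 had H3K56ac and H3K4me3 without H3K36me3, and PM23 and PM37 had all 3 marks. H3K56ac is at 70.9% of all protein-coding genes by this rule (interval 70.5 to 71.4), H3K4me3 at 74.5% (74.1 to 74.9), H3K36me3 at 53.3% (52.8 to 53.7) and all 3 marks at 51.3% (50.9 to 51.8).

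A closer background is the 33212 protein-coding genes that also have H3K56ac. Of these, 94.7% also had H3K4me3 (interval 94.4 to 94.9), compared with 5 of the 10 seed maturation genes. With LEA-1, PM1 and PM9 counted in, 5 of 13 acetylated genes with seed maturation symbols lacked H3K4me3. H3K36me3 was at 72.8% of the 33212 genes (72.3 to 73.3) and at 2 of the 10. All 3 marks were at 72.3% (71.9 to 72.8) and at the same 2 of the 10. H3K56ac with neither other mark was found at 4.84% (4.61 to 5.07), and at 5 of the 10. This count of 5 depended on the rule: it was 3 with a window of 2 kb, in the gene body alone or with at least 200 bp covered, and 2 with the longer 50% of each list, where the share over acetylated genes was 11.2%. The remaining combinations were 22.3% with H3K4me3 but no H3K36me3, which 3 of the 10 showed, and 0.479% with H3K36me3 but no H3K4me3, which 0 of the 10 showed. The list was named with earlier results of these data known, so these counts are set beside the background without a test.

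**Figure D1:**
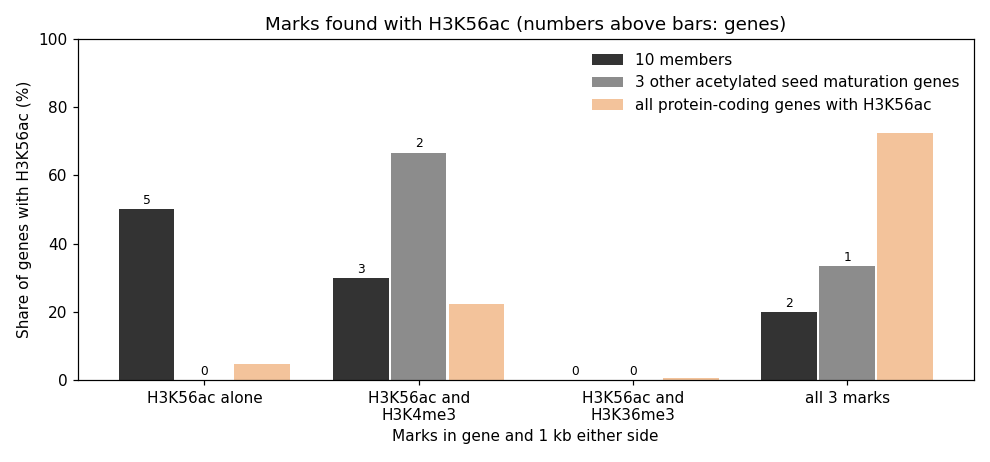
Share of genes with H3K56ac (%, vertical axis) that showed each combination of marks in the gene and 1 kb either side, for the 10 members (black), the 3 other acetylated seed maturation genes (grey) and the 33212 protein-coding genes with H3K56ac (orange); the number over a bar counts genes. H3K56ac alone was seen at 5 of the 10 members and at 4.84% of acetylated genes, a count that was 2 to 5 of the members under the other windows, overlaps and peak lengths tried, and all 3 marks at 2 of 10 and 72.3%.

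Gene length differed as well. The 10 genes were 625 to 6815 bp long with a median of 1621 bp, and the 33212 acetylated genes had a median of 3963.5 bp. Among acetylated genes no longer than 2000 bp, 9.49% had neither other mark (interval 8.75 to 10.3), and among longer ones 3.83% (3.6 to 4.06). In the length range of the members H3K4me3 was at 94.3% of acetylated genes and H3K36me3 at 70.3%. The part of gene length in the members' pattern was not tested.

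By acetylated length in the gene and 1 kb either side, the members split into a group with long stretches and a group with short or marginal ones. PM37 had 1517 bp of H3K56ac in its window, PM23 1403 bp, LEA-2 1285 bp and LEA5 1210 bp. PM3 had 523 bp and PM34 412 bp. PM22 had 188 bp, PM35 147 bp, PM27 100 bp and PM13 36 bp. No member lay between 523 and 1210 bp, whereas the median over all acetylated genes was 1077 bp. This gap depended on the window. PM23 had 1093 bp with 500 bp either side, since 310 bp of its total came from a peak inside a neighbouring gene. With 2 kb either side PM13 had 1036 bp and PM27 774 bp, since the 1 kb window cut peaks of 1459 and 774 bp. Fewer base pairs than at PM37 were found at 76.0% of acetylated genes, and fewer than at PM13 at 0.151%.

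**Figure D2:**
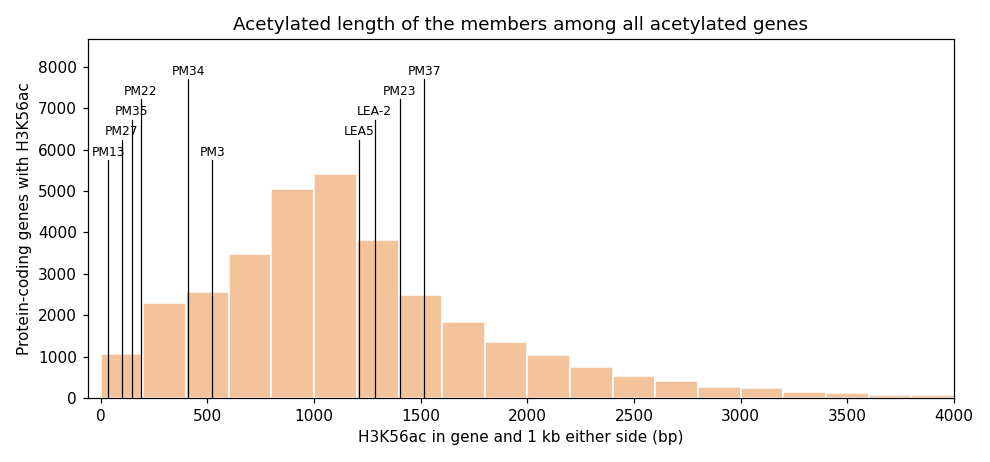
Protein-coding genes with H3K56ac (vertical axis, number of genes in bins of 200 bp) by acetylated length in the gene and 1 kb either side (horizontal axis, bp; genes above 4000 bp are not drawn), with a line at the value of each of the 10 members. LEA5, LEA-2, PM23 and PM37 lie between 1210 and 1517 bp, above the median of 1077 bp, and the other 6 lie at 523 bp or below.

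The threshold of the rule is a single base pair within 1 kb. The members with the fewest acetylated base pairs were PM13 with 36 bp, PM27 with 100 bp and PM35 with 147 bp. The peaks of PM13 and PM27 lay near the rim, 965 and 901 bp from the gene, whereas that of PM35 reached into the gene. Just outside the rule were PM12, whose nearest H3K56ac peak lay 1011 bp from the gene, PM40 at 1243 bp and PM29 at 1453 bp. PM12 thus missed the rule by 11 bp and PM13 met it by 36 bp.

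LEA5, a LEA protein gene of 792 bp, was acetylated along its whole length, with neither H3K4me3 nor H3K36me3 called in its window. Its single H3K56ac peak, on chromosome 17 from 2023791 to 2025000, was 1210 bp long and reached 192 bp beyond the lower end of the gene and 226 bp beyond the upper end. The gene table gives no strand, so lower and upper refer to the coordinates and not to the direction of transcription. The nearest H3K4me3 peak lay 3900 bp from the gene and the nearest H3K36me3 region 7627 bp. The nearest other gene, LOC100797554, lay 2511 bp away and held 0 bp of H3K56ac and 1043 bp of H3K4me3. Of 13181 protein-coding genes with at least as much acetylation, 149 had neither methylation mark (1.13%, interval 0.957 to 1.33). Among the 1979 of these no longer than 2000 bp the share was 1.21% (0.779 to 1.8). It was 9.49% over acetylated genes of that length with any amount of acetylation.

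PM34 and PM35 were acetylated inside the gene as well, but over short stretches. PM34, a member of the short-chain dehydrogenase and reductase enzymes with a gene of 1734 bp, had a 187 bp peak in its body (chromosome 20, 46554142 to 46554328). Its other peak, of 225 bp (46555087 to 46555311), covered the last 16 bp at the upper end and 209 bp beyond. Together they covered 11.7% of the gene, and the nearest H3K4me3 peak was 3699 bp away. PM34 overlapped its neighbour LOC100780821 by 210 bp, and that neighbour had 64.6% of its length under an H3K36me3 region that ended 1569 bp short of PM34. PM35, the shortest member at 625 bp, had a peak of 147 bp (chromosome 17, 14656094 to 14656240) across its lower end, with 40 bp inside the gene. This is the shortest length in the H3K56ac list, which 404 of 60550 peaks shared. Its nearest H3K4me3 peak was 4258 bp away and its nearest H3K36me3 region 65401 bp.

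PM3, a gene of 1508 bp, had no mark inside it. Its peak of 523 bp (chromosome 10, 43821680 to 43822202) lay 428 bp below the lower end and 2316 bp from the nearest other gene, so PM3 was the nearest annotated gene to it. The nearest H3K4me3 peak lay 3660 bp from PM3. PM13, known as a calcium-binding protein of the EF-hand type, also had no mark inside its 2493 bp. The acetylation that placed it on the list was the outermost 36 bp, or 2.47%, of a peak of 1459 bp (chromosome 10, 42387722 to 42389180). That peak overlapped the neighbour LOC100499983 by 408 bp. The same neighbour had 94.1% of its 983 bp under H3K4me3 and all of it under H3K36me3, and these marks began 1111 bp and 1244 bp from PM13. In a window of 2 kb PM13 therefore had all 3 marks, and in one of 500 bp none.

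**Figure D3:**
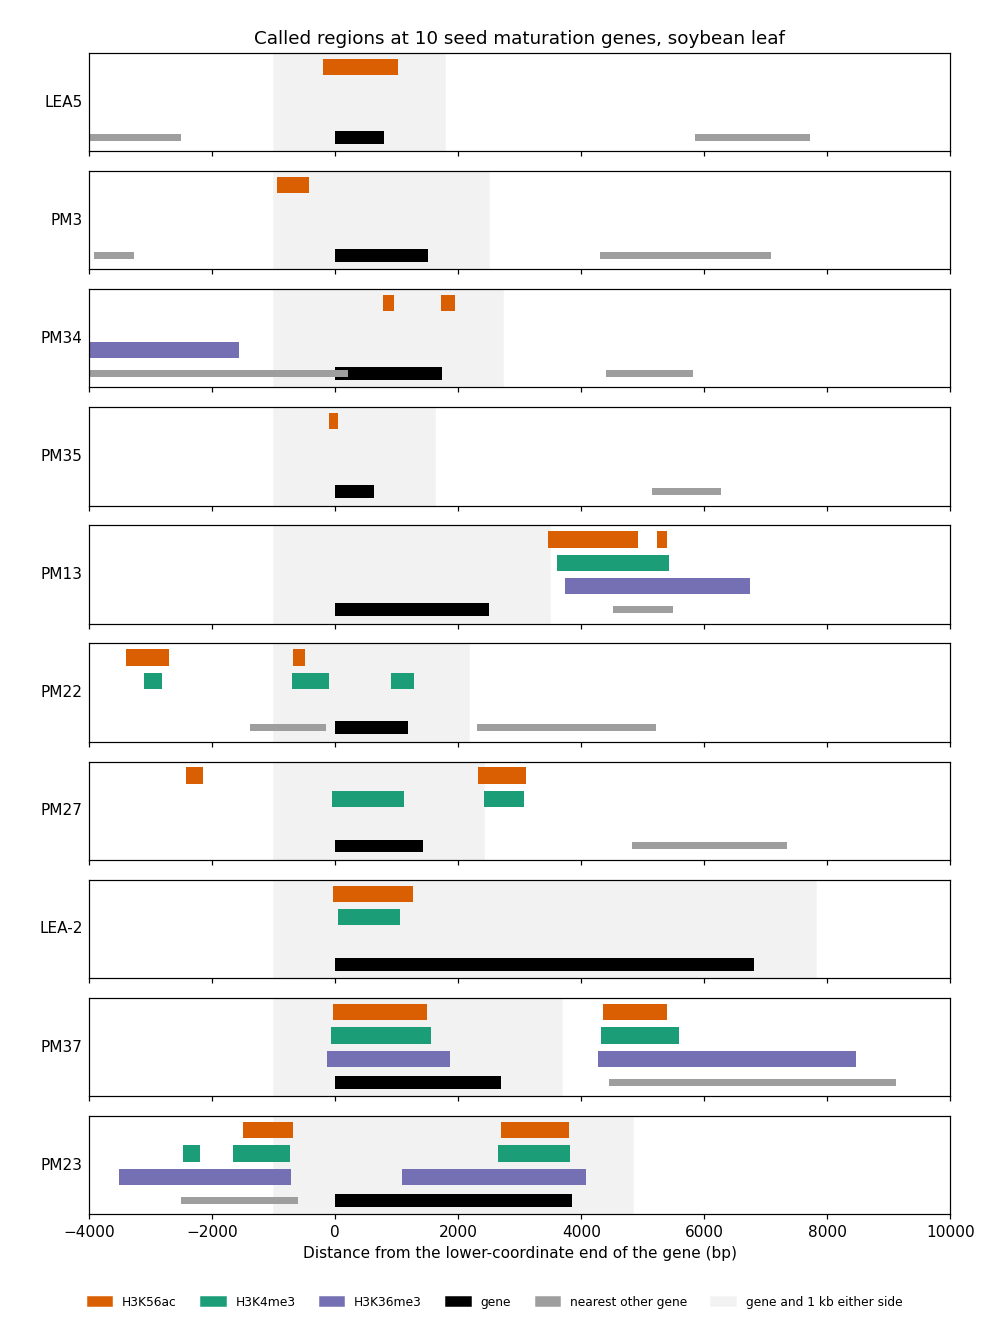
Called regions of H3K56ac (orange), H3K4me3 (green) and H3K36me3 (purple) within 3 kb of each of the 10 members, drawn to scale by distance from the lower-coordinate end of the gene (bp), with the gene in black, the nearest other gene on each side in grey where it falls in the frame, and the gene and 1 kb either side shaded. LEA5 has 1 acetylated peak over the whole gene and no other mark, PM13 meets its peak only at the rim of the window, and PM37 and PM23 have the 3 marks stacked toward 1 end.

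LEA-2 had the narrow marks together at 1 end of a long gene and no H3K36me3. Its H3K56ac peak of 1285 bp (chromosome 20, 8261644 to 8262928) began 28 bp below the lower end, and its H3K4me3 peak of 1005 bp (8261721 to 8262725) lay inside the acetylated stretch. The acetylation reached 77 bp farther out on the lower side and 203 bp farther on the upper side. The nearest H3K36me3 region was 69715 bp away, although LEA-2, at 6815 bp, was the longest member. Of 6227 acetylated genes at least as long that also had H3K4me3, 12.1% lacked H3K36me3 (interval 11.3 to 12.9). LEA-2 also stood far from other genes, with the nearest at 62696 bp on the upper side and 93425 bp on the lower side. Of 420 protein-coding genes with no other gene within 50 kb, 212 had H3K56ac (50.5%, interval 45.6 to 55.4) and 31.9% had H3K36me3. The same combination of H3K56ac and H3K4me3 without H3K36me3 was at 64 of the 420 (15.2%, interval 11.9 to 19.0). Since LEA-2 was chosen for H3K56ac, the 212 acetylated genes are the closer base for these 64.

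PM22 and PM27 had H3K4me3 in the gene and their acetylation outside it. PM27, of 1423 bp, had an H3K4me3 peak of 1158 bp (chromosome 12, 124158 to 125315) that began 46 bp below the lower end and covered 78.1% of the gene, with no H3K56ac over it. Its acetylation belonged to a second site: a peak of 774 bp (126527 to 127300) beginning 901 bp beyond the upper end, of which 100 bp fell in the window, with an H3K4me3 peak of 660 bp inside that stretch. That site was 1726 bp from the next gene, LOC100776720. PM22, of 1181 bp, had 269 bp of H3K4me3 across its upper end and a further H3K4me3 peak of 605 bp ending 100 bp below its lower end. Its 188 bp of H3K56ac (chromosome 16, 2932942 to 2933129) lay 497 bp below the gene, wholly inside the neighbouring pseudogene LOC100810139 and under that H3K4me3 peak. Within the gene bodies alone, therefore, neither PM22 nor PM27 had H3K56ac.

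PM37 and PM23 had all 3 marks, the combination found at 72.3% of acetylated genes. Where the 3 marks lay along the gene was not measured over all genes. At PM37, of 2690 bp, H3K56ac covered 55.3% of the gene (1517 bp, chromosome 12, 8016305 to 8017821), H3K4me3 58.1% (1625 bp, 8016271 to 8017895) and H3K36me3 69.4% (2000 bp, 8016201 to 8018200). The 3 began 29, 63 and 133 bp below the lower end, so the acetylated stretch was nested in the H3K4me3 peak and this in the H3K36me3 region. At PM23, of 3847 bp, the marks sat toward the upper end. H3K56ac covered 28.4% of the gene (1093 bp, chromosome 10, 48651822 to 48652914), H3K4me3 30.4% (1169 bp) and H3K36me3 71.9%. A further set of the 3 marks entered the PM23 window from the lower side, with 310 bp of H3K56ac, 265 bp of H3K4me3 and 282 bp of H3K36me3. Its H3K56ac and H3K4me3 peaks lay wholly inside the neighbour LOC100807506, which ends 603 bp from PM23.

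**Figure D4:**
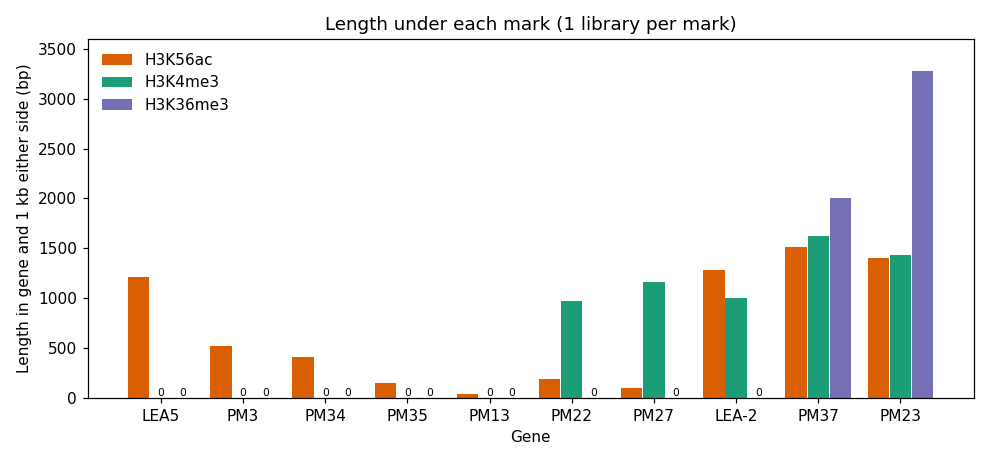
Length under H3K56ac, H3K4me3 and H3K36me3 (bp, vertical axis) in the gene and 1 kb either side of each of the 10 members, from 1 library per mark, with 0 written where no region was found. LEA5, PM3, PM34, PM35 and PM13 have H3K56ac alone, and PM37 and PM23 are the members with H3K36me3, at 2000 and 3282 bp.

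Taken by peaks and not by genes, 12 H3K56ac peaks reached the 10 windows. H3K4me3 overlapped 7 of them and was absent from the other 5, which were the single peaks of LEA5, PM3 and PM35 and the pair at PM34. In the list as a whole 30.0% of H3K56ac peaks had no H3K4me3 overlap (interval 29.6 to 30.3). This share fell with peak length, from 61.4% of peaks shorter than 250 bp (60.4 to 62.4) through 34.4% of those from 250 bp to under 1000 bp (33.9 to 34.9) to 8.02% of those of 1000 bp or more (7.64 to 8.41). The peaks of PM34 and PM35 were in the shortest of these classes and that of PM3 in the middle one. The peak of LEA5 was in the longest class, and of 11545 peaks at least as long 6.96% overlapped neither other mark (6.50 to 7.43).

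Where the narrow marks met, their edges were close at some members and far apart at others. The H3K56ac and H3K4me3 peaks of PM37 began 34 bp and ended 74 bp apart, and those inside PM23 55 and 21 bp apart. For PM27 the distances were 91 and 23 bp and for LEA-2 77 and 203 bp. The pair at PM23 that lay in the neighbouring gene began 169 bp and ended 45 bp apart. At PM13, where the pair lay beyond the gene, the distances were 146 and 517 bp. The H3K4me3 peak there also covered a second H3K56ac peak, of 152 bp (42389504 to 42389655), near its upper end. The PM13 pair is therefore not of the single-partner kind behind the median given below. At PM22 the peaks began 20 bp apart and ended 397 bp apart, since the acetylated peak was the shorter. The median over 39951 pairs in which each peak met a single partner was 50 bp (quartiles 16 and 155 bp).

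The other 17 genes with seed maturation symbols mostly had H3K4me3 without H3K56ac. H3K4me3 was at 13 of them, H3K56ac at 3 and H3K36me3 at 3, and 9 had H3K4me3 alone. Over all protein-coding genes the shares were 74.5%, 70.9% and 53.3%, so the H3K4me3 count was near that of genes at large. None of the 17 had H3K56ac alone. The absence of H3K56ac from most of them follows from how the members were chosen. PM1 and PM9, both LEA proteins, had H3K56ac with H3K4me3 and no H3K36me3 (PM9 was named after its values were seen). PM1 had 1340 bp of H3K56ac and 602 bp of H3K4me3, and PM9 had 236 and 473 bp. LEA-1 had all 3 marks, with 516 bp of H3K56ac, 547 bp of H3K4me3 and 600 bp of H3K36me3. Of all 13 acetylated genes with these symbols, then, 5 lacked H3K4me3, while 94.7% of all acetylated protein-coding genes had it. MP2, a LEA protein gene, had 1900 bp of H3K4me3 and no other mark. PM28 had H3K36me3 alone, over 1498 bp, and PM30 had 1542 bp of H3K36me3 with 174 bp of H3K4me3.

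Genes that act with the seed maturation genes in ripening seeds were compared by the same rule. Beside their counts, the shares over all protein-coding genes were 74.5% for H3K4me3, 70.9% for H3K56ac and 53.3% for H3K36me3. Of 11 genes listed with seed storage (GY and CG symbols and SBP65), 8 had H3K4me3, 0 had H3K56ac and 0 had H3K36me3. Of the 3 oil body and lipoxygenase genes found (OLEO1, LOX2 and LOX3), 2 had H3K4me3 and 0 had H3K56ac. The 5 regulators found were ABI3-1, ABI3-2, ABI5, LEC1-A and LEC1-B, named for transcription factors that switch on maturation genes, and 5 of 5 had H3K4me3 and 0 had H3K36me3. ABI3-1 was the acetylated one of these, with 188 bp of H3K56ac lying 813 bp from the gene.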

How the data were processed

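The deposited files used were 3 peak lists of soybean leaf, 1 per mark and library. Per the file headers and values each row is a chromosome with the bounds of 1 region, without score, height or read number. Tools listed in the submitters' processing notes are Trimmomatic, Bowtie2, Picard, MACS2 and SICER, without versions or roles. No source used here says which caller and threshold made a list, whether the input was used, or which soybean build was mapped to. H3K36me3 regions (32245 of 32245) have both bounds on a 200 bp grid and give the last base counted from 0. All positions were put on a scale counted from 1.

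Genes came from the RefSeq table of Glycine_max_v4.0, matched by exact symbol (10 of 10). A gene had a mark when at least 1 bp of a peak lay in the gene or 1 kb either side. Covered lengths used merged peaks, computed with Python 3.11.15, NumPy, pandas and SciPy, and were tested on simulated data. Intervals are Clopper-Pearson, 95%.

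The members and the gene lists were chosen with earlier results of these data known. The named genes were the 10 members, neighbours and genes just outside the rule, the 5 other genes with the most covered length, and marker genes. PM9 and genes of the pathway lists were named after their values were seen. Planned comparisons with the closest protein and of promoter letters were not run, since no sequence was used here. The input, and the maize samples, were not analysed.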

Additional observations from a re-analysis of the deposited data

How the results depend on the processing

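The combination of marks at LEA5, LEA-2 and PM23 was the same in windows of 500 bp, 1 kb and 2 kb, in the gene body alone and with at least 200 bp covered. That of PM37 was too, but it lost H3K36me3 when only the longer 50% of each list was used. H3K56ac was at 6 members instead of 10 in the gene body alone, with at least 200 bp covered, and in the longer 50% of each list. H3K56ac alone, at 5 members by the main rule, was at 3 with 2 kb, in the gene body alone and with at least 200 bp, and at 2 with the longer 50%, while its share of acetylated genes was 11.2% with the longer 50% and 4.49% to 5.19% otherwise. This count, with its alternatives, was added after the lists were seen. With 2 kb, H3K36me3 was at 4 members, and the other seed maturation genes had H3K56ac at 8, H3K36me3 at 8 and all 3 marks at 4. With the longer 50%, H3K36me3 and all 3 marks were at 1 member each, the other seed maturation genes had H3K56ac at 0, H3K4me3 at 6 and all 3 marks at 0, and protein-coding genes had H3K36me3 at 35.1% and all 3 marks at 26.4%. H3K4me3 was at 95% of acetylated genes in the gene body alone, 84.4% with the longer 50% and 94.3% with narrow marks counted at gene ends. H3K36me3 was at 74.5% with 2 kb, 73.9% with at least 200 bp, 55.9% with the longer 50% and 71.3% when counted over the gene with narrow marks at the ends. The comparison with closest proteins was not run. No paired analysis was possible because each mark had 1 library. Peak height and read depth are unknown, so a weak mark could not be told from no mark.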

Other observations

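Counting marks inside the gene body, the nearest annotated gene on each side of the 10 members gave 20 neighbours. Of these, 12 had H3K56ac, 15 had H3K4me3, 9 had H3K36me3 and 5 had no mark. Over all protein-coding genes the shares in the gene body were 68.3%, 72.7% and 51.1%, so these counts were near them. The neighbours were not all protein-coding, however. LOC100803642, beside LEA-2, is a long non-coding RNA gene and had no mark. LOC100810139, beside PM22, is a pseudogene and had H3K56ac and H3K4me3. All 3 marks were at 49.4% of protein-coding genes. Of the 12 neighbours with H3K56ac, 0 lacked H3K4me3. The share over all protein-coding genes acetylated in the body was 5% (interval 4.76 to 5.25), and 12 genes are too few to tell 0 from it. The 10 neighbours of LEA5, PM3, PM13, PM34 and PM35, the members with H3K56ac alone, had H3K56ac at 5, H3K4me3 at 7 and all 3 marks at 3. The 10 neighbours of the other members had H3K56ac at 7, H3K4me3 at 8 and all 3 marks at 6. PM35, with its 147 bp peak, lay 4530 bp from LOC102666499, which had 81.1% of its length under H3K56ac and 88.8% under H3K4me3. Both neighbours of PM13 had H3K36me3 over the whole gene. Both neighbours of PM3 were without H3K56ac and H3K36me3, and both neighbours of LEA-2 had none of the marks.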
